A study of Mus musculus with 57 samples.

Results

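Chemokines are small secreted proteins that guide leukocytes, and they act through receptors coupled to G proteins on the cells they attract. The spacing of their first cysteines divides them into CC, CXC, CX3C and XC ligands, and their receptors are named in the same way. CXC ligands with the ELR motif (glutamate, leucine, arginine) draw neutrophils through Cxcr2, Ccl2 and Ccl7 draw monocytes through Ccr2, and Cxcl12 retains cells that carry Cxcr4. The atypical receptors (Ackr) bind chemokines without G protein signalling, and scavenge or transport them. In heart tissue these genes are used by endothelial cells, fibroblasts, resident macrophages and leukocytes that enter from the blood.

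The genes described here are the 60 symbols, 38 ligands and 22 receptors, that matched the family's naming pattern among the 25416 symbols held by both count tables of the series. The pattern took symbols beginning with Ccl, Cxcl, Cx3cl or Xcl (ligands) and Ccr, Cxcr, Cx3cr, Xcr or Ackr (receptors), each followed by its number. Expression was not used to choose them. RNA from hearts of wild-type (WT) male C57BL6/J mice was sequenced after doxorubicin (Doxo), an anthracycline drug used against cancer that damages the heart, with or without beta-nicotinamide mononucleotide (NMN), a precursor of NAD+. In the acute study, 13 Doxo hearts came from mice that received 1 intraperitoneal injection of 20 mg/kg, 13 Doxo-NMN hearts from mice that also received NMN (180 mg/kg/day, intraperitoneal, from 5 days before Doxo), and 14 Ctrl hearts from mice that received vehicle. The mice were 9 weeks old at purchase, and hearts were taken 5 days after Doxo and 2 hours after the last NMN injection. In the chronic study, 6 Doxo hearts came from mice that received 5 injections of 4 mg/kg over 2 weeks (20 mg/kg in all), 6 Doxo-NMN hearts from mice that also drank NMN (500 mg/kg/day, from 5 days before the first injection), and 5 Ctrl hearts from vehicle mice. These mice were 14 to 16 weeks old at the first injection, and hearts were taken 60 days after it. Some mice died after Doxo in both studies, so the Doxo-treated hearts represent survivors. No group analysed here received NMN without Doxo.

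Total counts ran from 32409622 to 52102850 per heart in the acute study and from 17769886 to 23862287 in the chronic study. Levels are given as counts-per-million (CPM) of the heart's reads in tested genes after TMM scaling, and 3 counts were used as the floor of detection. Over the unscaled totals, 3 counts equal 0.0576 to 0.0926 CPM in acute hearts and 0.126 to 0.169 CPM in chronic hearts, a limit that covers counting error only. The 9 cardiomyocyte genes used to check the tissue label had a summed level of at least 32688 CPM in every heart. Acute Doxo replicate 6 stood apart from the other 12 Doxo hearts: its Cdkn1a, a p53 target, was 56.4 CPM, within the Ctrl range of 47.8 to 77.5 CPM, while the others held 78.1 to 307 CPM. It was the highest Doxo heart for 8 of the 11 chemokine genes called lower (64.9% of all 2199 genes called lower) and the lowest for 2 of the 14 called higher (69.5% of 2090 genes). Chronic Doxo replicate 2 stood apart in the other direction, with 117 CPM of Cdkn1a against at most 29.6 CPM in the other Doxo hearts. The atrial light chain gene Myl4 exceeded 100 CPM in 8 Ctrl, 5 Doxo and 4 Doxo-NMN hearts of the acute study, and the calls that changed within hearts of high (at least 100 CPM) or of low Myl4 are given after the NMN comparisons, and beside some genes. Of the counts between 1 and 20, 70.9% to 78.6% were even in each acute heart and 39% to 41.9% in each chronic heart, so the number of independent reads behind low acute counts is uncertain.

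Promoter sequences are shown for the 4 neutrophil and CXCR3 ligands whose windows held an NF-kB pattern, and for Cxcl12, a ligand that was lower, for comparison. The windows cover 250 bases before to 50 bases after the start of a RefSeq transcript (GRCm38.p6, 5′ to 3′ on the gene's strand), and capitals mark matches. NF-kB patterns were GGANTTTCC and GGANTTCCC, the AP-1 motif was TGANTCA and the interferon pattern (GAS) was TTCNNNGAA, all searched on both strands, and a palindromic match was counted once. The GAS motif was not found in these 5 windows.
Cxcl1, chr5:90890995-90891294, plus strand: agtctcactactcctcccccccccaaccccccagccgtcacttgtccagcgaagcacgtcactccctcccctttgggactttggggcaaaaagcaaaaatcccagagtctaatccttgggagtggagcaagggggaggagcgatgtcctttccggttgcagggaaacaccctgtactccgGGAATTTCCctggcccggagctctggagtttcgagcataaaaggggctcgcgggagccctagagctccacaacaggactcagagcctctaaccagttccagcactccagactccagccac
Cxcl2, chr5:90903649-90903948, plus strand: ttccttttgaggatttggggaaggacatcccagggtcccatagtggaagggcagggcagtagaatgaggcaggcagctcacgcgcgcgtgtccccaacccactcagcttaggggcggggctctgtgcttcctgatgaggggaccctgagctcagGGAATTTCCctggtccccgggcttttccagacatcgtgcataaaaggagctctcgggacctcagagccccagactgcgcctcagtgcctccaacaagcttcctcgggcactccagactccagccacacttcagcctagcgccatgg
Cxcl3, chr5:90785851-90786150, plus strand: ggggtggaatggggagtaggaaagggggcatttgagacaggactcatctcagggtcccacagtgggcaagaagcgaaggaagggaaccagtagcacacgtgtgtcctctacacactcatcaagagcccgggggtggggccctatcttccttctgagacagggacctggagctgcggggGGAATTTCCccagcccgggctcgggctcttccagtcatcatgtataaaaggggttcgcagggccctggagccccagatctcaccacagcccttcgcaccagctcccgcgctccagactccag
Cxcl10, chr5:92348840-92349139, minus strand: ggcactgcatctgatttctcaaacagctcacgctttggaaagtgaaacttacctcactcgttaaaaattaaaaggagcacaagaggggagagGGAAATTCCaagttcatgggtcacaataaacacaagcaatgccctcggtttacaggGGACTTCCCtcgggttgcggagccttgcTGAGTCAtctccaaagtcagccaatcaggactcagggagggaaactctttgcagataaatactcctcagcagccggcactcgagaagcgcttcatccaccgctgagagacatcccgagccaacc
Cxcl12, chr6:117168285-117168584, plus strand: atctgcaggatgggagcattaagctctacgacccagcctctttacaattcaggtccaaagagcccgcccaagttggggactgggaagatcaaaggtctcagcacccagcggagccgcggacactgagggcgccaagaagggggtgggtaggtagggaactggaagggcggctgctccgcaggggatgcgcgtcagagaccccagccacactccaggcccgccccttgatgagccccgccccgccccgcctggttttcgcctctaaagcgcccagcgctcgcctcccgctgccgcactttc
In Cxcl1, Cxcl2 and Cxcl3, which lie near each other on chromosome 5, the same letters GGAATTTCC stood at −70, −96 and −72 from the start. Cxcl10 held GGAAATTCC at −158, GGACTTCCC at −102 and the AP-1 match TGAGTCA at −74. Either NF-kB pattern was present in 810 of all 32851 windows (2.47%), an AP-1 match in 7.81% and a GAS match in 8.30%. Windows existed for 45 of the 60 genes. An NF-kB pattern was found in 3 of the 7 ligands called higher in acute Doxo hearts that had a window, in 0 of 3 called lower, in 0 of 6 not called, and in 1 of 11 not tested (Cxcl3). Among receptors it was found in Cxcr2, called higher, and in Ccr3 and Ccr6, which were not tested. A match describes the letters of these windows and does not show that a factor bound there.

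In the acute study the family changed in both directions. The neutrophil-drawing ligands Cxcl1 and Cxcl2, their receptor Cxcr2 and several other ligands rose in Doxo hearts, while the leukocyte receptors Ccr2, Cx3cr1 and Cxcr4, the lymphatic ligand Ccl21a and its scavenger Ackr4 fell. A gene was called where edgeR's quasi-likelihood test gave a Benjamini-Hochberg adjusted p under 0.05 over all 14240 tested genes and the fold change was at least 1.5. Of the 37 family genes that passed the filter on low counts, 14 were called higher and 11 lower in Doxo vs. Ctrl, where 14.7% of all tested genes were called higher and 15.4% lower. Their median log2 fold change was 0.51, against −0.0016 over all tested genes. The filter asked for 0.252 CPM in at least 12.1 hearts of any group. Without their Doxo hearts, Ackr1, Ccl5, Cxcl2, Cxcl5 and Cxcl10 would not have passed it, with 5, 9, 6, 10 and 11 hearts over that level, so the counts and medians of tested genes favour genes that were high in Doxo hearts. Of the 23 ligands tested, 10 rose and 5 fell (median 0.52), and of the 14 receptors 4 rose and 6 fell (median 0.42). With limma voom and sample weights, which give less weight to hearts far from their group, 10 family genes were called higher and 12 lower. The shares of 14.7% and 15.4% belong to the edgeR fit, and those with sample weights are not given here.

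**Figure D1:**
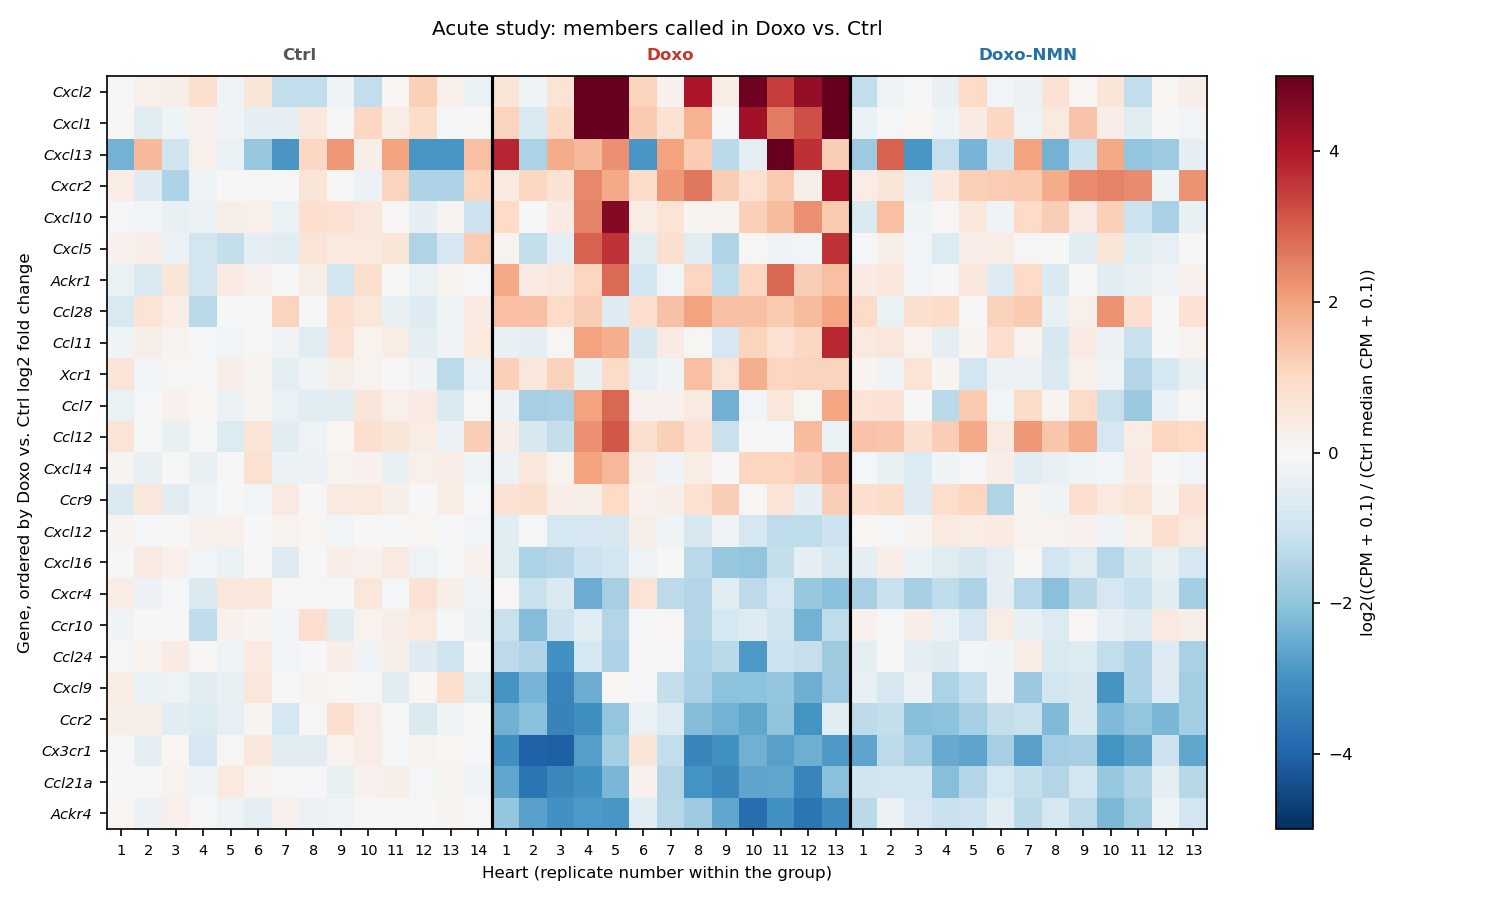
Heat map of 24 chemokine genes called in acute Doxo vs. Ctrl (rows, by fold change) in the 40 acute hearts (columns, by group), coloured by log2 of (CPM + 0.1) over (Ctrl median CPM + 0.1) and limited to ±5. Doxo replicates 4, 5 and 13 hold the deepest rises of Cxcl1 and Cxcl2, and Doxo replicate 6 resembles the Ctrl hearts for most of the genes that fell.

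Of the 37 tested family genes, the ELR ligands Cxcl2 and Cxcl1 had the largest rises. Cxcl1 lay between 0.526 and 1.75 CPM (median 0.816) in the Ctrl hearts, between 0.446 and 47.9 CPM (median 2.97) in the Doxo hearts and between 0.537 and 2.34 CPM (median 0.799) in the Doxo-NMN hearts. Of the 13 Doxo hearts, 9 exceeded every Ctrl heart, 1 was below all of them, and replicates 4, 13 and 5 were far above the rest at 47.9, 39.4 and 34.9 CPM. Cxcl1 was 13.7-fold higher in Doxo than in Ctrl (log2 fold change 3.77 ± 0.53 SE, adjusted p = 1.02e-07) and 12.5-fold lower in Doxo-NMN than in Doxo (−3.64 ± 0.54, adjusted p = 2.18e-06). Cxcl2 lay between 0 and 0.435 CPM (median 0.133) in Ctrl, 0.0991 and 31.3 CPM (median 2.46) in Doxo, and 0 and 0.361 CPM (median 0.122) in Doxo-NMN. Its rise was carried by 7 of 13 Doxo hearts that lay above the Ctrl range, again led by replicates 13, 4 and 5. Cxcl2 was 46.9-fold higher in Doxo (5.55 ± 0.76, adjusted p = 6.34e-08) and 46.8-fold lower with NMN (−5.55 ± 0.78, adjusted p = 1.12e-06), although the size rests on Ctrl and Doxo-NMN medians near the floor. With sample weights the 2 rises were 1.89 for Cxcl1 and 3.54 for Cxcl2, and among the hearts with high Myl4 they were 1.97 and 3.65, all still called.

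Cxcl5, a ligand of Cxcr2 that epithelial cells and platelets also make, showed a less uniform change. Its CPM ran from 0 to 0.601 (median 0.187) in Ctrl, from 0 to 3.43 (median 0.159) in Doxo and from 0.0806 to 0.338 (median 0.183) in Doxo-NMN. The Doxo median was below that of Ctrl, and the rise came from replicates 13, 5 and 4, at 3.43, 3.37 and 2.10 CPM. The fitted change of Cxcl5 was 1.90 ± 0.59 in Doxo vs. Ctrl (adjusted p = 0.00450) and −2.07 ± 0.61 with NMN against Doxo alone (adjusted p = 0.00431). With sample weights the first value was −0.12 (adjusted p = 0.87), among hearts with high Myl4 it was −0.47, and with a replicate block it was 1.12 (adjusted p = 0.172), so neither the call nor the direction of Cxcl5 was stable. Cxcl3, another ELR ligand on chromosome 5, did not pass the filter: it reached 3 counts in 0 Ctrl hearts, 4 Doxo hearts and 1 Doxo-NMN heart, with 3.32, 1.26, 0.673 and 0.488 CPM in Doxo replicates 13, 4, 5 and 8. Cxcl15 had no count in any acute heart.

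**Figure D2:**
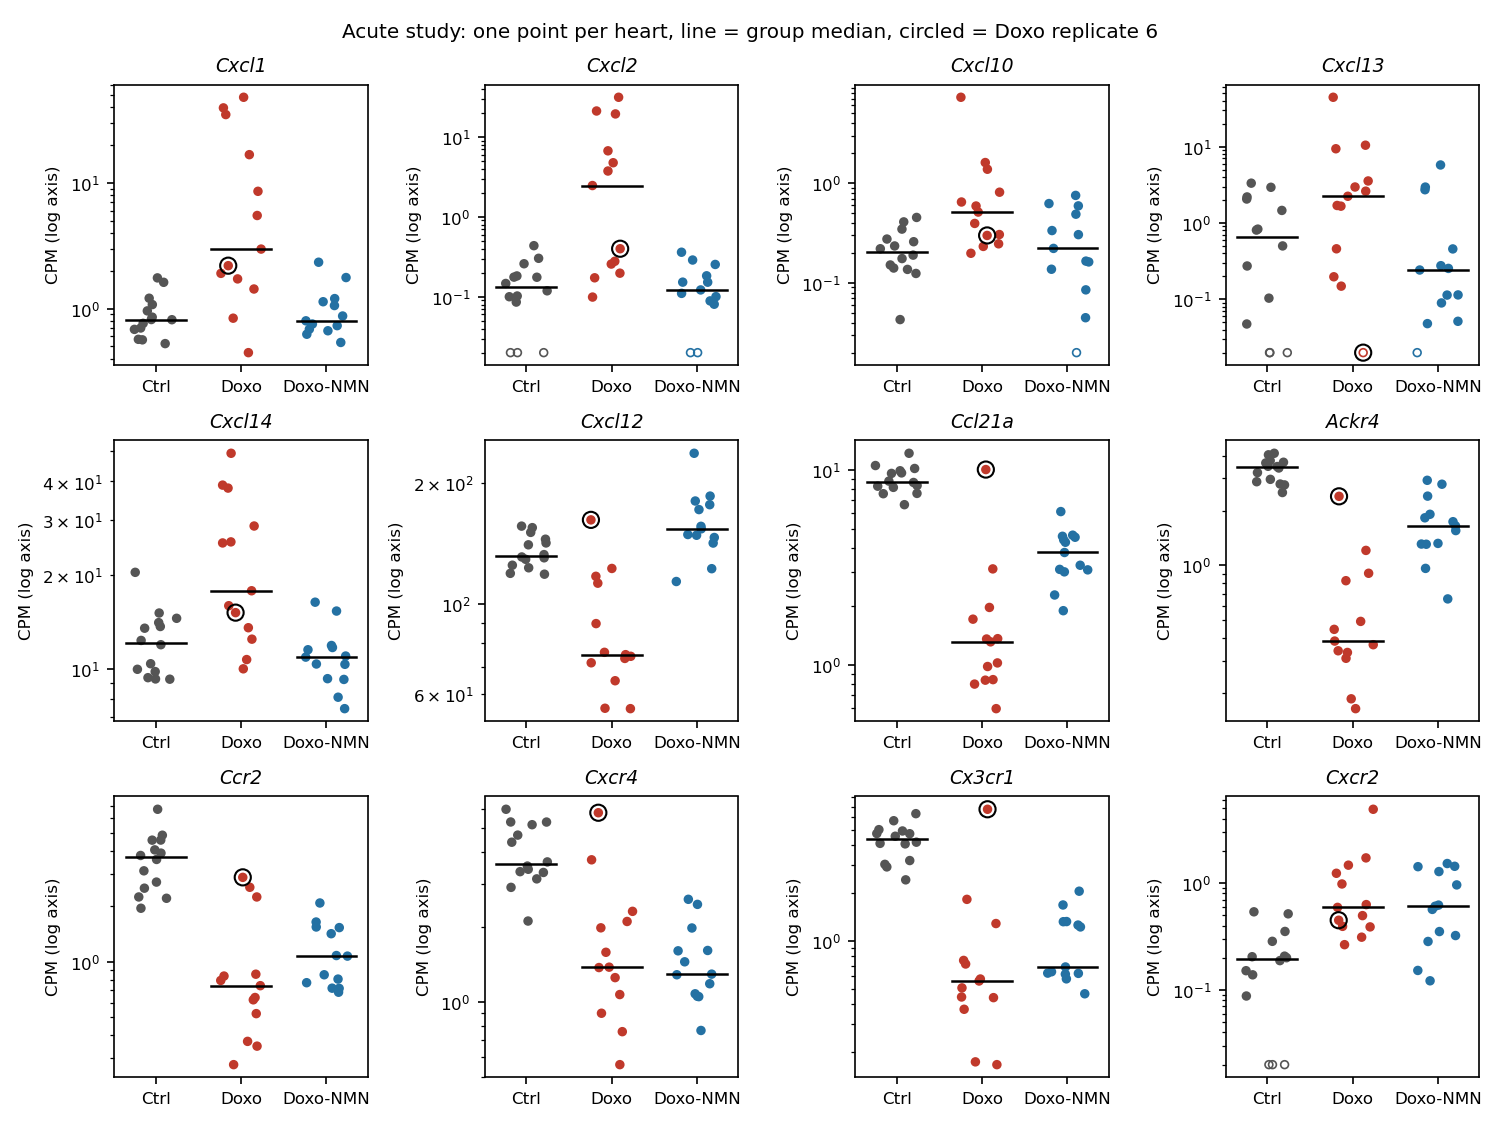
CPM (log axis) of 12 chemokine genes in each of the 40 acute hearts by group, with a line at the group median, open points at 0.02 CPM for hearts without a count, and a ring around Doxo replicate 6. Cxcl1 and Cxcl2 spread over more than a 10-fold range within the Doxo group, while Ackr4 is the gene whose Doxo hearts all lie under the Ctrl hearts.

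Cxcl9 and Cxcl10, interferon-induced ligands that draw T cells through Cxcr3, moved in opposite directions. Cxcl10 was measured at 0.0429 to 0.453 CPM (median 0.205) in Ctrl, 0.198 to 7.25 CPM (median 0.513) in Doxo and 0 to 0.753 CPM (median 0.222) in Doxo-NMN. Doxo replicate 5 held the highest value, and 7 of 13 Doxo hearts lay above the Ctrl range. Cxcl10 was 4.85-fold higher in Doxo (2.28 ± 0.50, adjusted p = 0.000144) and 3.65-fold lower with NMN (−1.87 ± 0.50, adjusted p = 0.00209). Without Doxo replicate 5 these values were 1.38 (adjusted p = 0.00304) and −0.97 (adjusted p = 0.0425), and the NMN difference was not called among hearts with high Myl4 (−0.77, adjusted p = 0.279). Cxcl9 instead fell, from 2.36 to 6.42 CPM (median 3.61) in Ctrl to 0.278 to 3.86 CPM (median 0.789) in Doxo and 0.380 to 3.20 CPM (median 1.87) in Doxo-NMN. All but 2 Doxo hearts and 10 of 13 Doxo-NMN hearts were below the whole Ctrl range. Cxcl9 was 3.01-fold lower in Doxo than in Ctrl (−1.59 ± 0.31, adjusted p = 3.00e-05) and remained 2.05-fold lower in Doxo-NMN (−1.03 ± 0.31, adjusted p = 0.0109). Its difference between Doxo-NMN and Doxo was 0.56 ± 0.32 (adjusted p = 0.135), and 0.84 without Doxo replicate 5 or 0.80 without replicate 6, both then called. Cxcl11, the remaining ligand of Cxcr3, was under 3 counts in most hearts, and 41.7% of its exon bases overlap another gene (Gm2673).

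Among the other CXC ligands, Cxcl13 and Cxcl14 rose and Cxcl12 and Cxcl16 fell. Cxcl12, made by stromal and endothelial cells, held 119 to 156 CPM (median 132) in Ctrl, 55.1 to 162 CPM (median 75.0) in Doxo and 114 to 237 CPM (median 154) in Doxo-NMN. Below the Ctrl range were 11 of 13 Doxo hearts, and the highest, at 162 CPM, was replicate 6. Cxcl12 was 1.53-fold lower in Doxo (−0.62 ± 0.12, adjusted p = 3.34e-05) and 1.81-fold higher in Doxo-NMN than in Doxo (0.86 ± 0.12, adjusted p = 1.79e-06). The first value lay close to the fold limit, and passed under it without Doxo replicate 11, 12 or 13 (−0.57, −0.57 and −0.58). Of 8 fibroblast genes, 5 fell in Doxo and 0 rose (median −1.36), among them Col1a1 (−2.39 ± 0.38) and Col3a1 (−2.79 ± 0.47), and with NMN 5 were higher than in Doxo and 2 lower (median 0.75). Their summed level was 818 to 1559 CPM in Ctrl, 531 to 1489 CPM in Doxo and 561 to 1462 CPM in Doxo-NMN. In Ctrl hearts this sum was 818 to 1056 CPM with low Myl4 and 1141 to 1559 CPM with high Myl4. High-Myl4 hearts numbered 8 in Ctrl, 5 in Doxo and 4 in Doxo-NMN. Of 8 endothelial genes, 1 fell in Doxo and 0 changed with NMN, and the part of either cell type in the Cxcl12 values was not tested. Cxcl16, a ligand made both as a membrane anchor and in soluble form, held 4.35 to 9.17 CPM (median 6.78) in Ctrl, 1.64 to 6.73 CPM (median 3.18) in Doxo and 2.47 to 8.51 CPM (median 4.44) in Doxo-NMN. For Cxcl16, 9 of 13 Doxo hearts were under the Ctrl range, and the change was −0.996 ± 0.18 (adjusted p = 8.49e-06). NMN vs. Doxo (0.44 ± 0.18, adjusted p = 0.0382) and NMN vs. Ctrl (−0.55 ± 0.18, adjusted p = 0.0191) passed the adjusted p for Cxcl16 but not the fold limit. Of its exon bases, 18.3% overlap Zmynd15 on the opposite strand, and without stated strand use the reads of the pair cannot be told apart.

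Cxcl14, a ligand of epithelia and fibroblasts, held 9.28 to 20.4 CPM (median 12.2) in Ctrl, 10.02 to 49.3 CPM (median 17.8) in Doxo and 7.47 to 16.4 CPM (median 10.9) in Doxo-NMN. It rose in Doxo (0.90 ± 0.19, adjusted p = 8.25e-05) and was lower with NMN (−1.07 ± 0.20, adjusted p = 3.31e-05). The 6 Doxo hearts above the Ctrl range included replicates 4, 5 and 13, at 49.3, 38.9 and 38.1 CPM. Cxcl13, which draws B cells, was 0 to 3.32 CPM (median 0.654) in Ctrl, 0 to 44.3 CPM (median 2.24) in Doxo and 0 to 5.75 CPM (median 0.242) in Doxo-NMN. Doxo replicate 11 alone held 44.3 CPM, followed by replicates 1 (10.4 CPM) and 12 (9.38 CPM). Cxcl13 rose by the fit (2.55 ± 0.84, adjusted p = 0.00707) and was lower with NMN (−2.61 ± 0.86, adjusted p = 0.0105), but without replicate 11 neither was called (1.5, adjusted p = 0.0882, and −1.55, adjusted p = 0.103). The summed level of 7 B cell genes had a median of 0.885 CPM in Doxo and 5.95 CPM in Ctrl. Of the 3 tested, 2 were called lower and 0 higher in Doxo. The B cell gene Cd79a was at most 0.598 CPM in Doxo hearts, in replicate 6. The B cell sum was 71.6 CPM in replicate 11, 21.2 in replicate 1 and 0.689 in replicate 12, against 4.71 to 7.66 CPM in Ctrl hearts. All 3 of those Doxo hearts were among the 5 with high Myl4, and the part of B cells or of atrial tissue in the Cxcl13 values was not tested. Cx3cl1, the membrane ligand of Cx3cr1, passed the adjusted p but not the fold limit (−0.44 ± 0.09, adjusted p = 8.29e-05), with 4.40 to 9.34 CPM in Doxo against 6.04 to 9.76 CPM in Ctrl.

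The inflammatory CC ligands, 9 of which were tested, included 3 called higher and 1 lower (median 0.52). Ccl11, or eotaxin, which draws eosinophils through Ccr3, held 0.956 to 2.53 CPM (median 1.48) in Ctrl, 0.789 to 21.2 CPM (median 2.0) in Doxo and 0.627 to 2.76 CPM (median 1.69) in Doxo-NMN. Most of its range came from Doxo replicate 13 (21.2 CPM), although 6 Doxo hearts lay above Ctrl. Ccl11 rose in Doxo (1.31 ± 0.36, adjusted p = 0.00146) and was lower with NMN (−1.27 ± 0.36, adjusted p = 0.00356). Without replicate 13 the values were 0.64 (adjusted p = 0.0312) and −0.60 (adjusted p = 0.0571), and with sample weights 0.38 and −0.30, neither called. Ccl24, another eotaxin, made by macrophages, fell instead. Ccl24 held 0.763 to 2.28 CPM (median 1.61) in Ctrl, 0.111 to 1.64 CPM (median 0.567) in Doxo and 0.457 to 2.09 CPM (median 1.01) in Doxo-NMN. Ccl24 was 2.45-fold lower in Doxo (−1.29 ± 0.27, adjusted p = 5.62e-05), with 10 of 13 hearts under the Ctrl range, and 1.65-fold higher with NMN (0.72 ± 0.27, adjusted p = 0.0228). Without Doxo-NMN replicate 7 the last value was 0.61 (adjusted p = 0.0546).

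Ccl7 and Ccl12, ligands of Ccr2 that draw monocytes, were near the threshold. Ccl7 held 0.704 to 1.94 CPM (median 1.22) in Ctrl, 0.148 to 9.55 CPM (median 1.42) in Doxo and 0.269 to 3.22 CPM (median 1.28) in Doxo-NMN. Ccl12 held 0.200 to 1.03 CPM (median 0.381) in Ctrl, 0.111 to 4.01 CPM (median 0.513) in Doxo and 0.169 to 2.04 CPM (median 1.03) in Doxo-NMN. For each of them 3 Doxo hearts lay above the Ctrl range and 3 below it, and replicates 5 and 4 were the highest. The fitted rises were 0.95 ± 0.40 for Ccl7 (adjusted p = 0.0361) and 0.93 ± 0.40 for Ccl12 (adjusted p = 0.0395). They were lost without Doxo replicate 5 (0.51, adjusted p = 0.224, and 0.45, adjusted p = 0.274) and in several other settings, and with sample weights they were −0.36 and −0.20. Ccl12 stayed higher in Doxo-NMN than in Ctrl (1.12 ± 0.40, adjusted p = 0.0343), a call that was lost in 7 of 40 fits that left out 1 heart. Ccl2, the main ligand of Ccr2, split the Doxo hearts: 4 lay above the Ctrl range of 1.39 to 2.66 CPM and 7 below it, from 0.520 CPM to 7.65 CPM in replicate 5. Its fitted change was 0.09 ± 0.34 (adjusted p = 0.827), but −0.81 (adjusted p = 0.0376) with sample weights and −0.83 (adjusted p = 0.0183) among hearts with high Myl4. Ccl6 and Ccl9, ligands of Ccr1, were more abundant and not called, with 7.91 to 39.8 CPM and 5.35 to 26.4 CPM in Doxo against 12.1 to 24.5 CPM and 11 to 17.4 CPM in Ctrl. Ccl5 and Ccl8 were not called either, with medians of at most 0.852 CPM in each group. Ccl3 and Ccl4 were not tested, and their highest Doxo values were 1.59 and 3.98 CPM, both in replicate 5.

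Of the homeostatic CC ligands, which organise leukocytes in tissues without inflammation, Ccl21a fell and Ccl28 rose among 4 tested. Ccl21a, which draws cells with Ccr7 into lymphatic vessels, held 6.64 to 12.2 CPM (median 8.71) in Ctrl, 0.595 to 10.1 CPM (median 1.31) in Doxo and 1.90 to 6.12 CPM (median 3.77) in Doxo-NMN. Replicate 6, at 10.1 CPM, was the single Doxo heart within the Ctrl range, and all 13 Doxo-NMN hearts lay under it. Of all tested genes, 1.43% showed no overlap between Doxo-NMN and Ctrl hearts. Ccl21a was 4.50-fold lower in Doxo (−2.17 ± 0.29, adjusted p = 5.21e-08), 1.87-fold higher with NMN (0.91 ± 0.29, adjusted p = 0.00836) and still 2.40-fold lower in Doxo-NMN than in Ctrl (−1.26 ± 0.28, adjusted p = 0.00101). Without replicate 6 the first and second values were −2.76 and 1.5. The near-identical copy Ccl21b had no count in any heart, so the share of reads between the copies is uncertain. The summed level of 5 lymphatic endothelial genes was 103 to 131 CPM in Ctrl, 110 to 143 CPM in Doxo and 97.3 to 133 CPM in Doxo-NMN, with 2 of 5 (Reln and Pdpn) called higher and 0 lower in Doxo. Ccl28, a mucosal ligand, held 0 to 0.446 CPM (median 0.153) in Ctrl, 0.0612 to 0.929 CPM (median 0.592) in Doxo and 0.0960 to 1.10 CPM (median 0.345) in Doxo-NMN. Ccl28 rose in Doxo (1.55 ± 0.36, adjusted p = 0.000223) with 10 of 13 hearts above Ctrl, and its NMN difference was −0.66 ± 0.35 (adjusted p = 0.106). Ccl27a differed by −0.23 ± 0.09 in Doxo (adjusted p = 0.0175), under the fold limit, and shares near-identical sequence with Ccl27b.

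The receptors Ccr2, Cx3cr1 and Cxcr4, found on monocytes and macrophages among other cells, were lower in Doxo hearts and stayed below Ctrl with NMN, while Ccr1, another receptor of these cells, was not called in Doxo vs. Ctrl (0.56 ± 0.26, adjusted p = 0.0566). Ccr2, which marks monocytes that leave the bone marrow, held 1.95 to 6.70 CPM (median 3.67) in Ctrl, 0.278 to 2.87 CPM (median 0.743) in Doxo and 0.685 to 2.08 CPM (median 1.07) in Doxo-NMN. Below the Ctrl range were 10 Doxo and 12 Doxo-NMN hearts, and the highest Doxo heart was replicate 6. In Doxo vs. Ctrl, Ccr2 changed by −1.78 ± 0.29 (adjusted p = 1.38e-06). In Doxo-NMN vs. Ctrl it remained lower, by −1.66 ± 0.29 (adjusted p = 5.43e-05). The difference between Doxo-NMN and Doxo was not called for Ccr2 (0.12 ± 0.29).

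Cx3cr1, a receptor of patrolling monocytes and resident macrophages, held 2.42 to 6.31 CPM (median 4.36) in Ctrl, 0.167 to 6.73 CPM (median 0.559) in Doxo and 0.465 to 2.05 CPM (median 0.685) in Doxo-NMN. Replicate 6, at 6.73 CPM, lay above every Ctrl heart, while the other 12 Doxo hearts and all 13 Doxo-NMN hearts lay under the Ctrl range. Doxo-NMN and Ctrl hearts did not overlap for 1.43% of all tested genes. Cx3cr1 was 3.80-fold lower in Doxo than in Ctrl (−1.93 ± 0.37, adjusted p = 2.46e-05), with −2.71 without replicate 6, and was 4.23-fold lower in Doxo-NMN than in Ctrl (−2.08 ± 0.38, adjusted p = 9.87e-05). Its NMN vs. Doxo value was −0.15 ± 0.38 (adjusted p = 0.755), which became 0.63 (adjusted p = 0.0481) without replicate 6. Cxcr4, the receptor of Cxcl12, held 2.12 to 5.97 CPM (median 3.60) in Ctrl, 0.559 to 5.78 CPM (median 1.38) in Doxo and 0.768 to 2.59 CPM (median 1.29) in Doxo-NMN. Cxcr4 was lower in Doxo (−1.06 ± 0.25, adjusted p = 0.000251) and in Doxo-NMN (−1.42 ± 0.25, adjusted p = 6.78e-05) than in Ctrl, while its ligand Cxcl12 was back within or above the Ctrl range in 12 of 13 Doxo-NMN hearts. In whole-tissue RNA, fewer cells of a type and less RNA per cell cannot be told apart. Over 14 monocyte and macrophage genes the summed level was 248 to 347 CPM in Ctrl, 139 to 319 CPM in Doxo and 190 to 355 CPM in Doxo-NMN, and in Doxo 4 of them fell (Csf1r by 1.07 ± 0.13 and Adgre1 by 1.44 ± 0.21 on the log2 scale) while 5 rose (Chil3 by 7.0 ± 0.64 and Ly6c2 by 1.03 ± 0.12). Over 7 resident macrophage genes it was 120 to 226 CPM, 86.0 to 232 CPM and 115 to 225 CPM, with 3 called lower in Doxo. With NMN, 2 of the 7 were higher than in Doxo and 0 lower, and 0 were called against Ctrl. Of the 14 monocyte and macrophage genes, 3 were higher and 3 lower in Doxo-NMN than in Ctrl. Their part in the receptor values was not tested.

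Cxcr2, the neutrophil receptor of Cxcl1 and Cxcl2, rose. Its CPM was 0 to 0.538 (median 0.194) in Ctrl, 0.265 to 4.90 (median 0.592) in Doxo and 0.122 to 1.52 (median 0.606) in Doxo-NMN. Above every Ctrl heart were 7 of 13 Doxo and 8 of 13 Doxo-NMN hearts, and Doxo replicate 13 was the highest. Cxcr2 was 5.05-fold higher in Doxo (2.34 ± 0.49, adjusted p = 7.24e-05) and 3.54-fold higher in Doxo-NMN (1.82 ± 0.49, adjusted p = 0.00539) than in Ctrl. The difference between them was −0.51 ± 0.46 (adjusted p = 0.352), so Cxcr2 was called against Ctrl in both Doxo groups, and Cxcl1 and Cxcl2 in the group without NMN. Among hearts with high Myl4 neither rise was called (1.18, adjusted p = 0.0769, and 0.50, adjusted p = 0.673). All 6 neutrophil genes tested, of 9 listed, rose in Doxo (S100a8 by 5.04 ± 0.62), and their summed level was 1.75 to 5.70 CPM (median 2.57) in Ctrl, 2.84 to 293 CPM (median 17.2) in Doxo and 5.15 to 33.5 CPM (median 10.6) in Doxo-NMN. Ly6g, a defining neutrophil gene, had no count in Ctrl hearts. The sum was 293 CPM in replicate 13, 81.5 in replicate 8, 47.9 in replicate 4 and 39.8 in replicate 5, which include the hearts highest in Cxcl1, Cxcl2 and Cxcr2. The part of neutrophil RNA in those values was not tested.

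Ccr10, Ccr9 and Xcr1 are lymphocyte and dendritic cell receptors of low level. Ccr10 held 0.227 to 1.31 CPM (median 0.681) in Ctrl, 0.0530 to 0.715 CPM (median 0.278) in Doxo and 0.335 to 0.970 CPM (median 0.628) in Doxo-NMN. Ccr10 was 2.27-fold lower in Doxo (−1.18 ± 0.26, adjusted p = 0.000153) and 2.07-fold higher with NMN (1.05 ± 0.27, adjusted p = 0.00123), and all Doxo-NMN hearts lay within the Ctrl range. Xcr1, a receptor of cross-presenting dendritic cells, moved the opposite way. Xcr1 held 0.0587 to 0.522 CPM (median 0.298) in Ctrl, 0.199 to 1.31 CPM (median 0.733) in Doxo and 0.0448 to 0.548 CPM (median 0.222) in Doxo-NMN. Xcr1 rose in Doxo (1.14 ± 0.28, adjusted p = 0.000421), with 9 of 13 hearts above Ctrl, and was lower with NMN (−1.43 ± 0.29, adjusted p = 0.000102). The dendritic cell gene Clec9a also rose in Doxo (0.60 ± 0.11, adjusted p = 1.7e-05), while the sum over 7 dendritic cell genes was lower, with a median of 15.4 CPM against 27.2 CPM in Ctrl. Ccr9 held 0.0712 to 0.307 CPM (median 0.181) in Ctrl, 0.106 to 0.567 CPM (median 0.340) in Doxo and 0 to 0.489 CPM (median 0.336) in Doxo-NMN. Its rise (0.70 ± 0.29, adjusted p = 0.0320) was lost in 5 of 40 fits that left out 1 heart, with values from 0.61 to 0.65. Ccr1 and Cxcr6 were called only for NMN vs. Doxo, both lower. Ccr1 held 0.605 to 2.86 CPM (median 1.65) in Ctrl, 0.789 to 5.99 CPM (median 1.53) in Doxo and 0.960 to 2.03 CPM (median 1.26) in Doxo-NMN. Cxcr6, the receptor of Cxcl16, held 0.05 to 0.777 CPM (median 0.325) in Ctrl, 0.0612 to 0.928 CPM (median 0.493) in Doxo and 0.0502 to 0.624 CPM (median 0.242) in Doxo-NMN. Against Ctrl, Ccr1 was called higher in Doxo in 8 of 40 fits that left out 1 heart. With NMN, Ccr1 changed by −0.77 ± 0.27 (adjusted p = 0.0145) and Cxcr6 by −0.95 ± 0.31 (adjusted p = 0.00907). The Ccr1 call was lost without Doxo replicate 5 (−0.59, adjusted p = 0.0517) or 13 (−0.57, adjusted p = 0.0554).

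The 4 atypical receptors each had their own course. Ackr4, which removes Ccl19, Ccl21 and Ccl25 in lymphatic and epithelial cells, held 2.51 to 4.12 CPM (median 3.45) in Ctrl, 0.164 to 2.39 CPM (median 0.385) in Doxo and 0.655 to 2.93 CPM (median 1.65) in Doxo-NMN. It was the family gene whose Doxo and Ctrl hearts did not overlap at all, a pattern that 0.906% of all tested genes showed, and even replicate 6 lay under the Ctrl range. Ackr4 was 5.12-fold lower in Doxo (−2.35 ± 0.28, adjusted p = 3.81e-09), 2.63-fold higher with NMN (1.40 ± 0.28, adjusted p = 8.19e-05) and 1.94-fold lower in Doxo-NMN than in Ctrl (−0.96 ± 0.26, adjusted p = 0.00553). Its exons overlap those of Acad11 on the opposite strand over 8.90% of their length. Ackr1, which carries chemokines across venous endothelium, held 0.0252 to 0.323 CPM (median 0.144) in Ctrl, 0 to 1.68 CPM (median 0.418) in Doxo and 0.0480 to 0.377 CPM (median 0.141) in Doxo-NMN. Ackr1 rose (1.85 ± 0.44, adjusted p = 0.000377) in a Doxo group that had 8 hearts above and 2 below the Ctrl range, and was lower with NMN (−1.75 ± 0.45, adjusted p = 0.00133). A share of 25.7% of its exon bases is also annotated to Cadm3 on the same strand, so its counts are uncertain.

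Ackr3, which scavenges Cxcl12 and Cxcl11, and Ackr2, which scavenges inflammatory CC ligands, were lower with NMN than in Doxo without a call against Ctrl. Ackr3 held 53.1 to 106 CPM (median 77.1) in Ctrl, 50.1 to 243 CPM (median 84.4) in Doxo and 47.8 to 75.6 CPM (median 57.1) in Doxo-NMN. The highest Doxo values of Ackr3 were in replicates 5, 4 and 13, at 243, 221 and 176 CPM. Ackr3 differed by 0.51 ± 0.18 in Doxo vs. Ctrl (adjusted p = 0.0140, under the fold limit) and by −0.88 ± 0.19 in Doxo-NMN vs. Doxo (adjusted p = 0.000226). Ackr2 held 1.2 to 2.57 CPM (median 1.92) in Ctrl, 0.764 to 4.20 CPM (median 2.16) in Doxo and 0.824 to 2.06 CPM (median 1.5) in Doxo-NMN. For Ackr2 the same comparisons gave 0.33 ± 0.18 (adjusted p = 0.110) and −0.77 ± 0.19 (adjusted p = 0.000872). Both NMN differences lay under the fold limit with sample weights (Ackr3 −0.58, Ackr2 −0.55) and were not called among hearts with high Myl4 (−0.46 and −0.44).

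**Figure D3:**
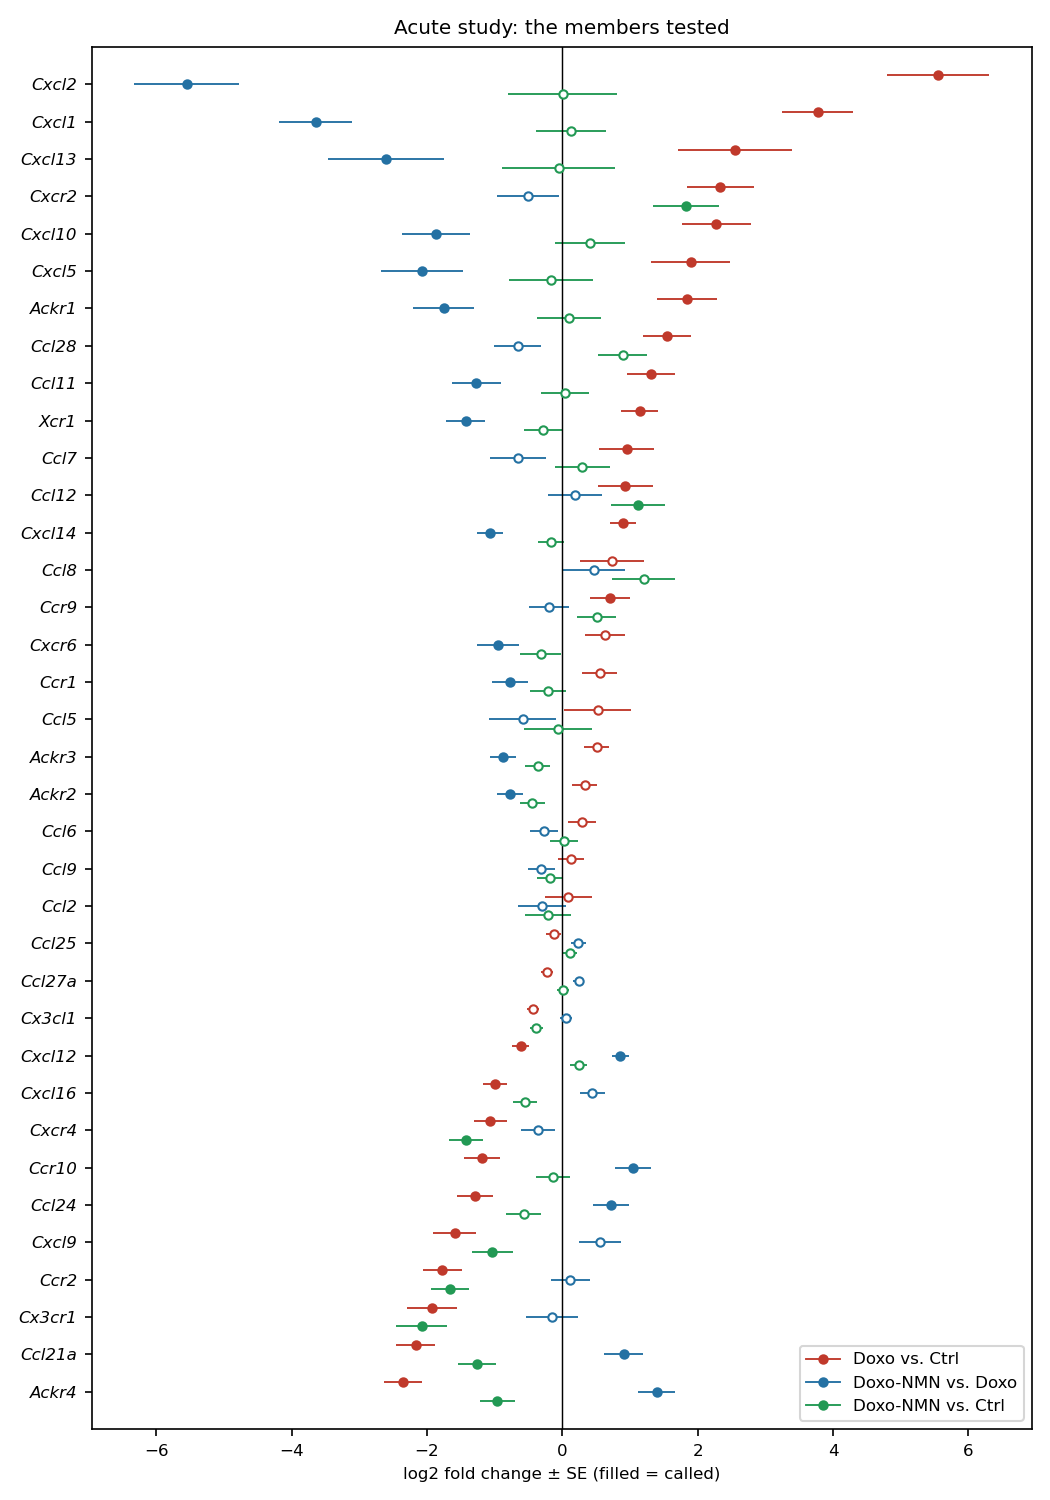
Log2 fold change ± SE (edgeR) of 36 tested chemokine genes in the 3 acute comparisons, with filled points for called genes. Cxcl2 and Cxcl1 lie at the positive end for Doxo vs. Ctrl (5.55 and 3.77) and at the negative end for Doxo-NMN vs. Doxo (−5.55 and −3.64), and Ackr4 lies at the opposite end of both.

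With NMN, 9 of the 14 family genes that Doxo raised were called lower than in Doxo, where 51.6% of all 2090 raised genes were. Of the 11 that Doxo lowered, 5 were called higher than in Doxo, where 46.7% of all 2199 lowered genes were. Ccr2, Cx3cr1 and Cxcr4, also lowered by Doxo, stayed below Ctrl. In Doxo-NMN vs. Doxo, 5 of the 37 tested family genes were called higher and 13 lower, where 8.17% of all tested genes were called higher and 8.88% lower, and the median was −0.31. With sample weights 10 were called higher and 8 lower, in a fit whose shares of all genes are not given here. In Doxo-NMN vs. Ctrl, 2 were called higher and 7 lower, where the shares of all genes were 3.31% and 3.79%. These comparisons share the Doxo or the Ctrl hearts, so they are given side by side and not correlated. The 9 raised genes that were lower with NMN (Ackr1, Ccl11, Cxcl1, Cxcl2, Cxcl5, Cxcl10, Cxcl13, Cxcl14 and Xcr1) were not called against Ctrl. Cxcr2 and Ccl12 were still higher than Ctrl, and Ccl7, Ccl28 and Ccr9 were called in neither NMN comparison. Of the 11 genes lowered by Doxo, Cxcl12, Ccl24 and Ccr10 were higher with NMN and no longer called against Ctrl, while Ackr4 and Ccl21a were higher with NMN yet still below Ctrl. Ccr2, Cx3cr1, Cxcr4 and Cxcl9 stayed below Ctrl with no call between Doxo-NMN and Doxo, and Cxcl16 was called in neither. Still different from Ctrl were thus 7 of the 11, against 20.5% of all 2199 lowered genes.

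Within hearts of high or of low Myl4, which are fewer, several calls changed. In Doxo vs. Ctrl, low-Myl4 hearts gave no call for Cxcl12 (−0.58, under the fold limit), Ccr9 (0.98, adjusted p = 0.0663), Ccl7 (1.45, adjusted p = 0.0607) and Ccl12 (1.30, adjusted p = 0.0905), and a call for Ccr1 (1.04, adjusted p = 0.0273). High-Myl4 hearts gave none for Cxcl5, Cxcr2, Ccr9 (0.31), Ccl7 (−0.10), Ccl11 (0.23) and Ccl12 (0.38), and a call for Ccl2 and for Cxcr6 (0.83, adjusted p = 0.0350). In Doxo-NMN vs. Doxo, the lost calls in low-Myl4 hearts were Ccl21a (0.71, adjusted p = 0.170), Ccl24 (0.56, adjusted p = 0.190), Cxcr6 (−0.76, adjusted p = 0.166) and Cxcl13 (−1.39, adjusted p = 0.186). Those in high-Myl4 hearts were Ackr2, Ackr3, Cxcl10, Ackr1 (−1.62, adjusted p = 0.0671), Ccr10 (0.99, adjusted p = 0.114), Ccl11 (−0.32), Cxcl5 (−0.30) and Ccr1 (0.032), while Cxcl9 was called higher (1.27, adjusted p = 0.0166). In Doxo-NMN vs. Ctrl, Ackr4 (−1.05 in low and −0.81 in high, adjusted p = 0.0870 and 0.103), Cxcl9 (−1.32 and −0.80, adjusted p = 0.0510 and 0.159) and Ccl12 (1.15 and 1.26, adjusted p = 0.249 and 0.0880) were called in neither set of hearts. Ccl21a lost that call in low-Myl4 hearts (−1.33, adjusted p = 0.0551), where Ccl8 gained one (1.64, adjusted p = 0.0471), and Cxcr2 lost it in high-Myl4 hearts.

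The NF-kB pathway drives the transcription of many chemokines. Of 24 tested genes of the pathway and its inducing cytokines, 11 rose, 2 fell and 11 were not called in Doxo vs. Ctrl (median 0.56, against −0.0016 over all genes), where 14.7% of all tested genes rose and 15.4% fell. Those with the smallest adjusted p were the inhibitors Nfkbia (1.85 ± 0.20) and Nfkbib (1.06 ± 0.13), the tumour necrosis factor receptor Tnfrsf1a (1.18 ± 0.16) and the cofactor Bcl3 (1.92 ± 0.27). With NMN 14 of the 24 were lower than in Doxo and 1 higher (median −0.69), where 8.88% of all tested genes were lower and 8.17% higher. Nfkbia (−0.82 ± 0.20) and Bcl3 (−2.04 ± 0.28) were among the 14. Their summed level was 391 to 448 CPM in Ctrl, 412 to 1136 CPM in Doxo and 395 to 519 CPM in Doxo-NMN. The Doxo replicates 5, 13 and 4 that led Cxcl1 and Cxcl2 also led here, at 1136, 887 and 885 CPM. Over all 2090 genes called higher in Doxo, replicates 5, 4 and 13 were the highest Doxo heart for 26.2%, 22.1% and 8.47%. The part of NF-kB in the Cxcl1 and Cxcl2 values was not tested. The cytokine genes Csf2 and Csf3 had no count in Ctrl hearts. Of 12 tested genes of the interferon axis, which induces Cxcl9 and Cxcl10, 4 rose, 2 fell and 6 were not called (median 0.04). The interferon gamma receptor chain Ifngr2 (−1.45 ± 0.20) fell, and the transcription factors Stat2 (1.01 ± 0.22) and Irf7 (0.68 ± 0.16) rose.

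Of 35 tested genes that act downstream of chemokine receptors, 6 rose, 4 fell and 25 were not called in Doxo (median 0.06), beside shares of 14.7% and 15.4% over all tested genes. Rgs16 (2.04 ± 0.29), which shortens G protein signals, the transcription factor Stat3 (1.5 ± 0.17) and the kinase Jak3 (0.71 ± 0.11) rose, and the phospholipase Plcb3 fell (−0.59 ± 0.08). With NMN 0 of the 35 were higher than in Doxo and 4 lower, where 8.17% of all tested genes were higher and 8.88% lower. Rgs16 (−2.10 ± 0.29) and Stat3 (−1.19 ± 0.17) were among the 4. Of 21 tested genes that present or cleave chemokines, 5 rose, 3 fell and 13 were not called in Doxo (median −0.17). The proteases Mmp8 (4.35 ± 0.60), which is also a neutrophil marker, and Mmp14 (1.06 ± 0.16) and the heparan sulfate carrier Sdc4 (1.22 ± 0.21) rose, while Adam17 (−0.91 ± 0.11), a sheddase of Cx3cl1, fell. Among 11 tested family relatives with other names, Ccrl2 rose (0.62 ± 0.18), and Cd74 (−2.85 ± 0.40), a chaperone of antigen presentation that binds the cytokine Mif, and Cmtm3 (−0.87 ± 0.12) fell. The lists were chosen with earlier results of these data known, so these counts are descriptions.

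Levels per kilobase were taken over all annotated exons of a gene together, 3348 bases for Ackr3 and 8176 for Cxcl12. The isoforms present in these hearts were not examined, so the order and shares below depend on this choice of length. By this measure, Ackr3 had the highest level of the family in acute Ctrl hearts (mean 23 ± 4.18 SD CPM per kb, n = 14). Cxcl12 (16.6 ± 1.55), Ccl6 (10.8 ± 2.42), Ccl21a (10.4 ± 1.67), Cxcl14 (6.80 ± 1.72) and Ccl9 (4.47 ± 0.614) followed, of which Ccl6 and Ccl21a differed by less than their SD. Ackr3 and Cxcl12 held 23.6% and 17% of the family's summed level. In Doxo hearts Ackr3 stood at 32.8 ± 19.5 CPM per kb, Ccl6 at 13.2 ± 6.22, Cxcl14 at 12.7 ± 6.84 and Cxcl12 at 10.8 ± 3.84, which overlap each other within their SD, and Cxcl1 reached 6.75 ± 8.97. Cxcl12 (19.6 ± 3.83) and Ackr3 (17.9 ± 2.57) led in Doxo-NMN hearts and also differed by less than their SD. In chronic Ctrl hearts the first places were held by Cxcl12 (36.7 ± 3.93), Ackr3 (20.7 ± 3.0) and Cxcl14 (14.5 ± 0.651).

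In the chronic study no family gene was called. Of 26 tested, 0 passed an adjusted p of 0.05 in Doxo vs. Ctrl (0.0602% of all 14960 genes passed), 0 in Doxo-NMN vs. Doxo (0% of all genes) and 0 in Doxo-NMN vs. Ctrl (0.0401%). At an unadjusted p under 0.05 there was 1 family gene in each comparison, beside 1174, 441 and 707 of all genes, and DESeq2 also called 0 family genes in each. Log2 fold changes in Doxo vs. Ctrl ran from −0.64 to 0.19 with a median SE of 0.27, and 6 of 26 were positive. The single gene at p under 0.05 was Cxcl16, with 11.3, 9.20, 8.50, 9.36 and 7.64 CPM in Ctrl replicates 1 to 5 and 2.47 to 8.73 CPM (median 6.75) in Doxo (−0.51 ± 0.22, adjusted p = 0.609). For Doxo-NMN vs. Doxo it was Ccl11 (0.57 ± 0.22, adjusted p = 0.999), and for Doxo-NMN vs. Ctrl Cxcl14 (−0.31 ± 0.11, adjusted p = 0.977), whose hearts did not overlap, as for 0.775% of all tested genes. Cxcl14 was 25.9, 26.7, 25.4, 26.1 and 28.5 CPM in Ctrl and 17.3 to 25.2 CPM in Doxo-NMN.

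The genes that moved most in the acute study overlapped between the chronic groups. Cxcl1 held 1.96, 1.16, 0.745, 1.49 and 1.08 CPM in the 5 Ctrl hearts, 0.230 to 1.72 CPM (median 0.904) in Doxo and 0.372 to 4.51 CPM (median 0.902) in Doxo-NMN. Ackr4 held 5.17, 3.58, 4.17, 3.99 and 3.62 CPM in Ctrl, 0.689 to 6.25 CPM (median 3.37) in Doxo and 3.14 to 5.41 CPM (median 3.62) in Doxo-NMN. Cxcl12 held 329, 264, 299, 336 and 274 CPM in Ctrl, 128 to 348 CPM (median 273) in Doxo and 230 to 352 CPM (median 244) in Doxo-NMN. All 3 overlapped between the groups, and the lowest Doxo heart of each was replicate 2. That heart was the lowest Doxo heart for 17 of the 26 genes, against 32.8% of all tested genes. It was the highest for 1 of the 26, against 31.4% of all tested genes. It held 0.919 CPM of Cx3cr1 and 0.345 CPM of Cxcl9, where the group medians were 2.74 and 3.72 CPM. Without it, 0 family genes were called as well.

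**Figure D4:**
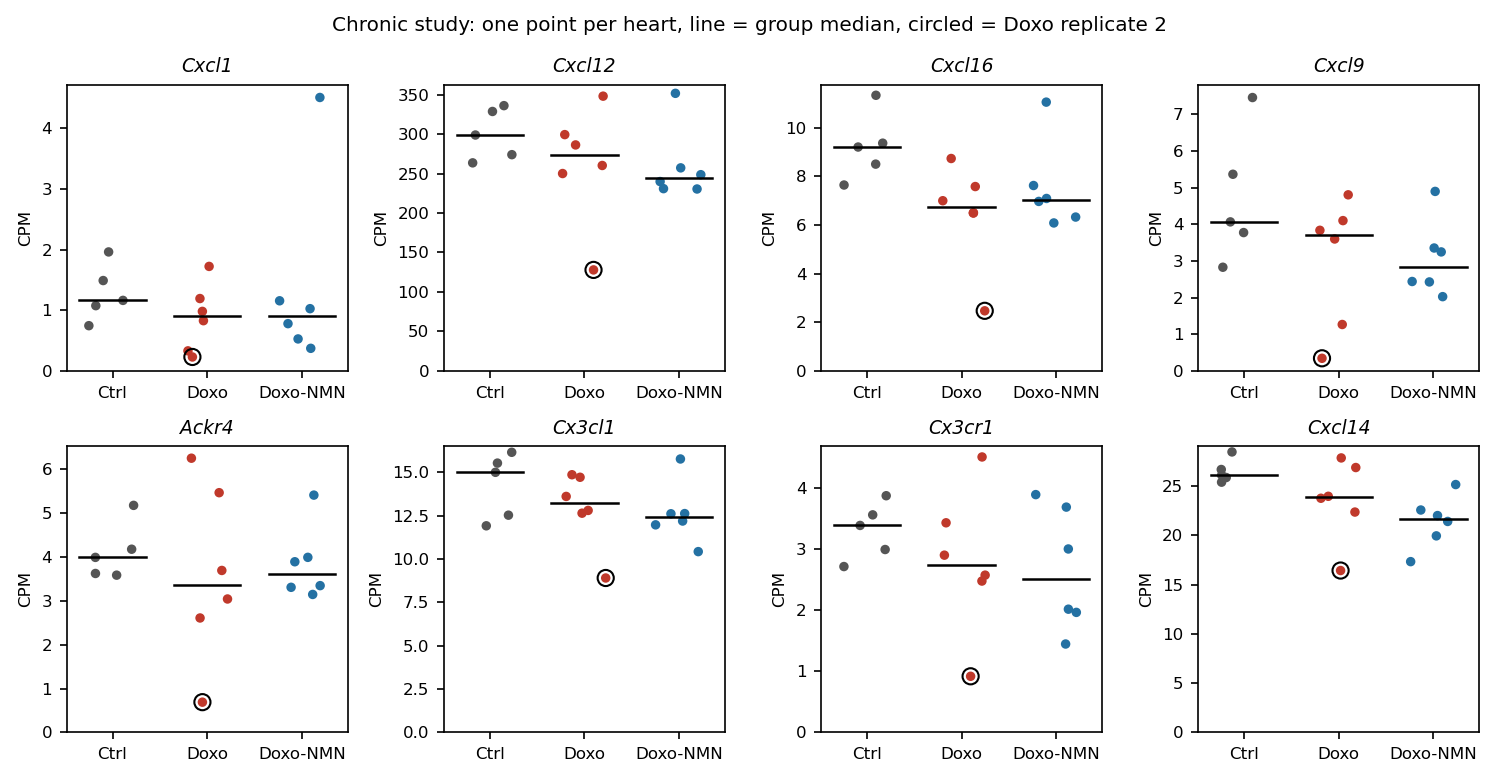
CPM (linear axes from 0) of 8 chemokine genes in each of the 17 chronic hearts by group, with a line at the group median and a ring around Doxo replicate 2. The groups overlap in every panel except Cxcl14, where all Doxo-NMN hearts (17.3 to 25.2 CPM) lie under the Ctrl hearts (25.4 to 28.5 CPM), and replicate 2 is the lowest Doxo heart in each.

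The Doxo effect itself was compared between the studies in a fit of the 38 Ctrl and Doxo hearts, in which 42 family genes passed the filter. A positive difference means a higher log2 fold change in the acute study. Positive differences were called for 3 family genes and negative ones for 3, where 11% of all 14965 genes were positive and 8.33% negative. Cxcl1 differed by 4.29 ± 1.07 (adjusted p = 0.00781), Cxcl10 by 2.74 ± 0.85 (adjusted p = 0.0240) and Cxcl14 by 1.07 ± 0.35 (adjusted p = 0.0306). In the other direction, Ackr4 differed by −2.18 ± 0.52 (adjusted p = 0.00647), Ccl21a by −2.10 ± 0.57 (adjusted p = 0.0124) and Ccr2 by −1.96 ± 0.60 (adjusted p = 0.0228). Cxcl10 lost its call without chronic Ctrl replicate 3 (2.52, adjusted p = 0.0533), Cxcl14 without chronic Ctrl replicate 5 (1.03, adjusted p = 0.0535) and Ccr2 without chronic Doxo replicate 6 (−1.67, adjusted p = 0.0591). Cxcl2 was not called (4.99 ± 2.28, adjusted p = 0.111), and its chronic Ctrl hearts held at most 0.160 CPM. Without acute Doxo replicate 6, 11 of 42 family genes were called, where 30.8% of all 14955 genes were called. Among the 11 was Cx3cr1 (−2.48, adjusted p = 0.000176). Regimen, age, day, sequencing site and annotation differ between the studies together, so their parts cannot be told apart.

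**Figure D5:**
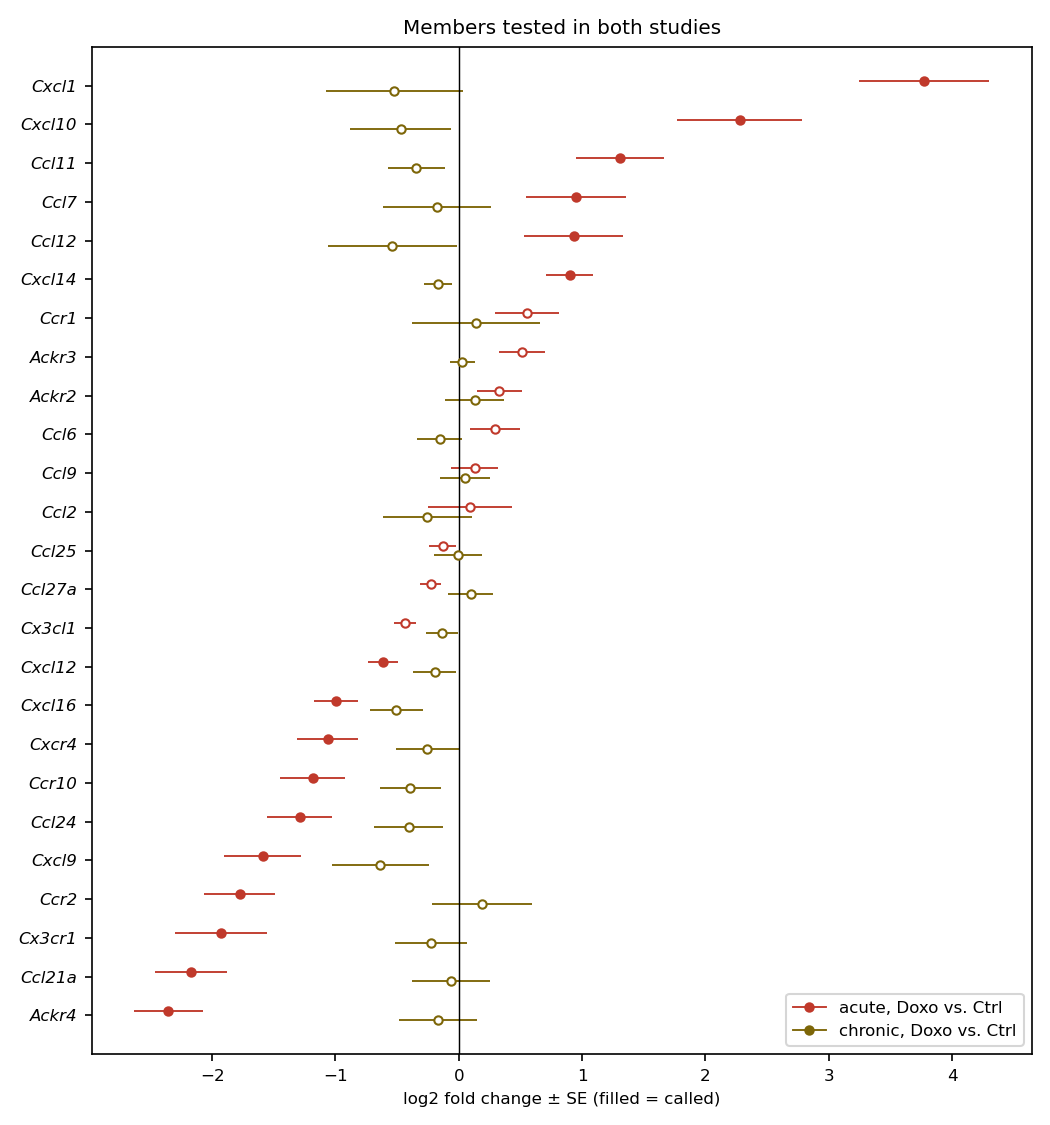
Log2 fold change ± SE of Doxo vs. Ctrl for 25 chemokine genes tested in both studies, in acute and in chronic hearts, with filled points for called genes. Acute values run from −2.35 (Ackr4) to 3.77 (Cxcl1), while chronic values stay between −0.64 and 0.19 and none is called.

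The remaining genes did not pass the filter on low counts. Under 3 counts in most hearts of both studies were 18 genes, among them the T cell and B cell receptors Ccr4, Ccr6, Ccr8 and Cxcr3 and the ligands Ccl17, Ccl20, Ccl22 and Cxcl11, and in the chronic study also Ccl4, Ccl19 and Cxcl13. In all, 23 genes were tested in neither study and 11 in the acute study alone. Cxcl17, a mucosal ligand, reached 3 counts in 1 Ctrl, 9 Doxo and 2 Doxo-NMN acute hearts, and Cxcr3 in 9, 3 and 3. Ccl22 reached it in 7 Ctrl hearts, 1 Doxo heart and 1 Doxo-NMN heart. Ccr7, the receptor of Ccl21a, did so in 10, 12 and 9 hearts, and Ccl19 in 9, 10 and 9. In an acute fit without the filter, 8 of the 21 family genes that it had removed were called in Doxo vs. Ctrl, 5 higher (Cxcl3, Cxcl17, Ccl3, Ccl4 and Ccr8) and 3 lower (Ccl22, Ccl26 and Cxcr3), where 16.8% of all 21799 genes were called higher and 12.1% lower. The smallest adjusted p were those of Cxcl3 (1.96e-06) and Cxcl17 (0.000573). In Doxo-NMN vs. Doxo, Cxcl3, Cxcl17, Ccl3 and Ccl4 were called lower and Xcl1 higher (8.44% and 6.25% of all genes). In Doxo-NMN vs. Ctrl, Ccl22 was called lower and no such gene higher (2.92% and 4.87% of all genes). Fold changes of these genes rest on a few counts per heart and are not given.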

How the data were processed

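RNA from 57 mouse hearts was sequenced (poly(A) RNA, single-end), in 40 acute and 17 chronic libraries. The authors deposited 1 table of raw gene counts per study. According to the methods and processing notes, reads were aligned to mm10 with STAR (2.7.3a in the notes) and counted with featureCounts (2.0.0). Strand use and annotation version are not given in the sources used here. Columns not assigned to a sample numbered 0. Groups came from the sample labels. Nothing in the labels pairs hearts across groups.

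The deposited counts were filtered by group with edgeR's filterByExpr (version 4.0.16, R 4.3.3; minimum count 10), scaled by TMM factors and tested with edgeR's quasi-likelihood test, with Benjamini-Hochberg adjustment over all tested genes. Each study was fitted once, with its 3 groups. Standard errors were taken as the fold change over the root of F. A call needed an adjusted p under 0.05 and, in the acute study, a fold of at least 1.5. The difference in the Doxo effect was fitted on the 25416 shared symbols. Depth was 32409622 to 52102850 counts in acute and 17769886 to 23862287 in chronic hearts. In simulated counts with 200 changed genes, 173 of the 198 tested were recovered for acute Doxo vs. Ctrl, and 146 of 196 for chronic Doxo vs. Ctrl. Alternatives were RLE factors, DESeq2 (1.42.0), limma voom (3.58.1) with sample weights, no filter, no fold limit, the compared groups alone, a replicate block, halved acute counts, hearts split at 100 CPM of Myl4, and each heart left out.

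The family genes, gene lists and tests were chosen with earlier results of these data known. Full values are given for family genes called in acute Doxo vs. Ctrl or Doxo-NMN vs. Doxo, ranges for others, and at most 4 called genes per list by smallest adjusted p. Short marker counts were named in full after their values were seen. Exon lengths, overlaps and promoter windows came from reference annotation of GRCm38, with windows from RefSeq (GRCm38.p6). Protein sequences were not used here. 1 family gene and 1 gene of the interferon list are included in the counts and not reported here.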

Additional observations from a re-analysis of the deposited data

Results flagged for a closer look

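In the chronic study, 78 sets of a gene and a group were examined for a single heart far from the others (Dixon's ratio), and 9 were found (11.5%). The limit of this ratio gives about 5% for independent, normally distributed values. These sets share their hearts, with 4 of the 9 in Doxo-NMN replicate 4. The rate over all tested genes is not given here, so the 2 percentages cannot be compared. Doxo-NMN replicate 4 was the highest heart of its group for Cxcl12 (352 CPM, next 257 CPM), Cxcl16 (11 CPM, next 7.62 CPM), Ackr4 (5.41 CPM, next 3.99 CPM) and Ccl24 (3.19 CPM, next 2.01 CPM). Its Myl4 was 83.8 CPM, against at most 14.3 CPM in the other Doxo-NMN hearts. Its fibroblast sum was 1371 CPM, against 646 to 766 CPM in the others. The part of tissue composition in these values was not tested. Doxo replicate 2 was the lowest for Cxcl16 (2.47 CPM, next 6.49 CPM) and Cx3cl1 (8.90 CPM, next 12.6 CPM). Cxcl1 was 4.51 CPM in Doxo-NMN replicate 3, where the next heart held 1.16 CPM. Ctrl replicate 1 held 11.6 CPM of Cxcr4 (next 6.36 CPM) and 5.99 CPM of Ccl9 (next 4.02 CPM).

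The effect of Doxo differed between the acute and the chronic study for 6 of 42 tested family genes by edgeR's quasi-likelihood test of the difference, where 11% of all genes were called positive and 8.33% negative. It was more positive in acute hearts for Cxcl1 (4.29 ± 1.07 SE), Cxcl10 (2.74 ± 0.85) and Cxcl14 (1.07 ± 0.35), and more negative for Ackr4 (−2.18 ± 0.52), Ccl21a (−2.10 ± 0.57) and Ccr2 (−1.96 ± 0.60). The calls of Cxcl10, Cxcl14 and Ccr2 were each lost without 1 chronic heart (Ctrl replicate 3, Ctrl replicate 5 and Doxo replicate 6).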

How the results depend on the processing

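With RLE factors the counts of called family genes equalled those reported in each comparison (25, 18, 9, 0, 0, 0 and 6). The 25 calls of acute Doxo vs. Ctrl ranged from 18 (acute counts halved, 7 higher and 11 lower, 28 genes tested) to 30 (no filter, 58 tested) over the alternatives, and from 22 to 26 without 1 heart. Doxo-NMN vs. Doxo gave 18 calls, 16 to 21 without 1 heart, 12 with counts halved and 11 among hearts of high Myl4 (5 higher, 6 lower). Doxo-NMN vs. Ctrl gave 9 calls, 8 to 11 without 1 heart, 5 among hearts of low and 4 among hearts of high Myl4. The difference between the studies gave 6 calls, 10 with DESeq2, and 5 to 11 without 1 heart. The 11 were without acute Doxo replicate 6, where 30.8% of all genes were called. Except where given, shares of all genes called under the alternatives are not shown here. Leaving out chronic Ctrl and Doxo hearts in turn was added after the data were seen. No chronic comparison gave a call under any alternative run. In Doxo vs. Ctrl, sample weights turned Cxcl5 (−0.12), Ccl2 (−0.81), Ccl7 (−0.36) and Ccl12 (−0.20), and high-Myl4 hearts turned Cxcl5 (−0.47), Ccl2 (−0.83) and Ccl7 (−0.10). In Doxo-NMN vs. Doxo, sample weights turned Cxcl5 (0.13) and Cx3cr1 (1.01), leaving out Doxo replicate 6 turned Cx3cr1 (0.63; range −0.29 to 0.63 without 1 heart), and high-Myl4 hearts turned Ccr1 (0.032). The cause of these turns was not tested. Without a fold limit, 68.1% of all genes passed in acute Doxo vs. Ctrl and 28 family genes.

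The replicate numbers were not taken as pairs: no comparison had every correlation of deviations over 0.1. In the acute study the median r over 13 same-numbered pairs was −0.19 for Ctrl and Doxo (3 pairs over 0.1), 0.35 for Ctrl and Doxo-NMN (8 pairs) and 0.11 for Doxo and Doxo-NMN (7 pairs). With a replicate block, acute Doxo vs. Ctrl gave 22 calls. The 2 comparisons of Doxo-NMN gave 15 calls against Doxo and 11 against Ctrl, and the chronic ones 0. Depth limits genes near the floor of 3 counts, such as Cxcl2 and Ccr9 in acute Ctrl hearts.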
